A study of Mus musculus with 35 samples.

Results

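KLF4 binding was compared between day 3 and day 6 of the reprogramming of mouse fibroblasts towards induced pluripotency. The comparison rests on 4 KLF4 ChIP-seq peak lists out of the 22 peak lists and 35 samples of the series, 2 libraries at day 3 and 2 at day 6, which were chosen by their titles and read on chromosomes 1 to 19 and X. All 4 libraries came from mouse embryonic fibroblasts (MEFs) of a C57BL/6 x 129 background with the genotype OKSM Col1a1/M2rtTA ROSA26: a cassette in the Col1a1 locus holds the reprogramming factors OCT4, KLF4, SOX2 and MYC, and the M2rtTA protein made from Rosa26 turns it on when doxycycline is given. Both days were grown in ESC medium with doxycycline at 1 ug/ml and ascorbic acid at 50 ug/ml. The day 3 cells were unsorted and the day 6 cells were sorted for SSEA1, a surface carbohydrate of cells on the way to pluripotency. Day and sort therefore cannot be told apart in any difference given here. The KLF4 that was precipitated includes the protein made from the cassette, and reads from the cassette's coding sequences cannot be told apart from those of the exons of Pou5f1, Klf4, Sox2 and Myc. Each batch named in the labels, EA-3702 and DG-4040, holds 1 library of each day, so each day was also compared within its batch. The labels give the KLF4 antibody a catalogue number that differs by 1 from one of these libraries to the next, so its identity across libraries was not tested.

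KLF4 is a zinc finger transcription factor that binds GC-rich and CACCC-type elements. It is used together with OCT4, SOX2 and MYC to turn fibroblasts into pluripotent cells, and it is known both as an activator of epithelial genes in skin and gut and as part of the factor network of embryonic stem cells (ESCs). Fibroblasts on this path first lose mesenchymal and take up epithelial features, and later switch on their own pluripotency genes. H3K27ac, the acetylation of lysine 27 of histone H3, marks active enhancers and promoters.

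The 4 lists merged into 52020 regions. A region was called lost when both day 3 lists and neither day 6 list held a peak in it, gained in the converse case, and common when all 4 lists held one. The names describe membership in peak lists and not a tested change. There were 3302 lost regions (6.35% of all merged regions), 1351 gained regions (2.60%) and 10816 common regions (20.8%). Gained regions lay in or near 5 of 25 pluripotency genes and 8 of 23 epithelial genes, against 5.68% of all protein-coding genes. Some lay on the gene starts of Nanog and Nr5a2, which encode transcription factors of the pluripotency network. Others lay on the starts of the tight junction and polarity genes Tjp3, Cldn4, Crb3 and Lsr. As percentiles of score within the day 6 list of DG-4040, Nanog and Cldn4 stood at 7.62, Lsr at 17.5 and Crb3 at 24.9. In the day 6 list of EA-3702 Nanog stood at 57.9, Cldn4 at 36.3, Lsr at 29.2 and Crb3 at 44.0. Tjp3 and Nr5a2 stood at 82.8 or higher in both day 6 lists. Lost regions lay in or near 7 of 28 fibroblast and mesenchymal genes, with 1 on the start of Twist1, but also at 3 of 8 housekeeping genes, against 10.9% of all protein-coding genes. Snai1, Snai2, Twist2 and Prrx1, which encode other mesenchymal transcription factors, had none, and with lists cut to equal length Cdh2, Col6a1 and Runx2 alone of the 28 kept one. Pluripotency genes were on both sides, since Pou5f1, Sox2, Tet2 and Epha2 had a lost region.

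The sequences upstream of 7 gene starts that lie in such regions are printed so that the bases under these regions can be read beside their values. They show 4 gained starts of pluripotency and epithelial genes, 2 lost starts and the common start with the highest mean rank. Each is the 250 bases before the start in RefSeq (build GRCm38.p6, the build called mm10), read 5′ to 3′ along the gene, and capitals mark every match to the KLF letters GGGNGTG or its reverse complement CACNCCC.
Nanog (chr6:122707239-122707488, plus strand): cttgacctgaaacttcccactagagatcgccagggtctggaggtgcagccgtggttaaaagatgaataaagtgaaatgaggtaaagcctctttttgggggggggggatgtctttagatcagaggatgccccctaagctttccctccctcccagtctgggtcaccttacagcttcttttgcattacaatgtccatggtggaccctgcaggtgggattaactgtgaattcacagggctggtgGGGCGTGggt
Nr5a2 (chr1:136953631-136953880, minus strand): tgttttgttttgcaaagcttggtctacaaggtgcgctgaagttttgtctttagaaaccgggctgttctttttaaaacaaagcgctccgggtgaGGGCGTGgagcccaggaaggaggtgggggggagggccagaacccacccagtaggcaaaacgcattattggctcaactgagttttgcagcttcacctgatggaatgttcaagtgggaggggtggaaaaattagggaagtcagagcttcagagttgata
Tjp3 (chr10:81291582-81291831, minus strand): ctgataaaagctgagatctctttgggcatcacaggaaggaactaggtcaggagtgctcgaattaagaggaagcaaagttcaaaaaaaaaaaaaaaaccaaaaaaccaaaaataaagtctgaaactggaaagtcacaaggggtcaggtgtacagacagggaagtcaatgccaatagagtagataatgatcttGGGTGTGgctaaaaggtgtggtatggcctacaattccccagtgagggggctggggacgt
Crb3 (chr17:57061951-57062200, plus strand): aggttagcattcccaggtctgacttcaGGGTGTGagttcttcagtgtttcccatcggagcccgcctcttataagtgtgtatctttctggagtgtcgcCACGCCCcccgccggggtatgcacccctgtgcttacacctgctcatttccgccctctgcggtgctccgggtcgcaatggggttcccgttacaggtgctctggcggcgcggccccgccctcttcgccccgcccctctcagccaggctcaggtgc
Twist1 (chr12:33957421-33957670, plus strand): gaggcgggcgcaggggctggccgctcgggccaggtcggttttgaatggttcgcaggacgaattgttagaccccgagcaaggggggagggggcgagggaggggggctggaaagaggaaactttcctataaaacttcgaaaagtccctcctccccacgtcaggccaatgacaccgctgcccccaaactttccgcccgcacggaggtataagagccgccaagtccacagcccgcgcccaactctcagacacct
Tmem40 (chr6:115762467-115762716, minus strand): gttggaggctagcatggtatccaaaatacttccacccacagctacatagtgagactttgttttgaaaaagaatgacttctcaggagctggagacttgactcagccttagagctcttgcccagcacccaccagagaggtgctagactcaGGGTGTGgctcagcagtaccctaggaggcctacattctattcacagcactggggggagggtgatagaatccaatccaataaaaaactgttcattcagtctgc
Arhgap28 (chr17:68004109-68004358, minus strand): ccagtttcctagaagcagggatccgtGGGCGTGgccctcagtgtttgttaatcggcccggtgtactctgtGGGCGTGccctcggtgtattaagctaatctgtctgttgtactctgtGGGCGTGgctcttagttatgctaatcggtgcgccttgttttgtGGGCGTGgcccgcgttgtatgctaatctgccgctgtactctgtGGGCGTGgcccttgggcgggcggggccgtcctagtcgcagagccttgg

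The Nanog start lay in a gained region at chr6:122707255-122707649, where the day 6 peak had a score of 87 in batch EA-3702 and of 31 in batch DG-4040. The score is the authors' value for a peak and equals 10 times the −log10 p-value, rounded down. Nr5a2, an orphan nuclear receptor gene, had the fifth-ranked gained region of all, at chr1:136953548-136954223, with day 6 scores of 209 and 616 and fold enrichments of 10.0 and 14.6. Tjp3, a tight junction scaffold gene, had a gained region at chr10:81291391-81291800 with scores of 176 and 193. Crb3, an apical polarity gene, had one at chr17:57061809-57062223 with scores of 64 and 47. All 4 of these regions held KLF4 peaks in both day 9 libraries and in at least 1 serum ESC library. None of them held an H3K27ac peak in a MEF library, and all 4 held one in both day 9 libraries. The other gained starts of these lists were not all of this kind: the region on the Epha2 start held H3K27ac peaks in both MEF and all 3 day 3 libraries and a KLF4 peak in 1 day 9 library, and that on the Lsr start held an H3K27ac peak in 1 MEF library.

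Twist1, a gene for a mesenchymal transcription factor, had its start in a lost region at chr12:33957413-33957928 with day 3 scores of 31 and 51. No day 9 KLF4 library had a peak there, whereas H3K27ac peaks were present in every MEF, day 3, day 6, day 9 and ESC library. Tmem40, which encodes a transmembrane protein, had its start in the lost region of the highest mean rank among those that overlap a start with a RefSeq promoter entry, with day 3 scores of 145 and 183. Arhgap28, which encodes a GTPase-activating protein, had the highest-ranked common region, with scores of 2590 and 1342 at day 3 and of 2091 and 3481 at day 6. Its printed promoter holds 5 matches to the KLF letters, against 2 for Crb3, 1 each for Nanog, Nr5a2, Tjp3 and Tmem40 and 0 for Twist1. The number varied within each class. Of other gained starts, those of Cldn4, St3gal3 and Mcm7 have 0 matches, that of Epha2 has 1, those of Pepd and Lsr have 2 and that of Klc3 has 3. The lost start of Gtf3c3 has 1, and those of Nt5m, Hmgxb4, Rdh14 and Nnat have 0. The common starts of Klf3 and Tubb2a have 0, those of Esrra and Set have 1 and that of Ass1 has 2. Shares over all windows of each class are given further below.

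The day 3 lists held 34404 peaks in batch EA-3702 and 29493 in batch DG-4040, and the day 6 lists held 22525 and 23954. Both day 3 lists were thus longer than both day 6 lists, with a mean of 31949 ± 3473 (SD, n = 2) against 23239 ± 1010 (SD, n = 2). The difference, day 6 minus day 3, was -0.46 on the log2 scale, with -0.61 in batch EA-3702 and -0.30 in batch DG-4040. The exact two-sided permutation test gave p = 0.333, the smallest that 2 against 2 libraries allow, and 0.667 after Benjamini-Hochberg adjustment over the 4 list measures tested. With peaks at a q-value of at most 0.01 the order no longer held: the day 3 lists kept 24283 and 13052 peaks and the day 6 lists 15761 and 16719. The covered length was 15.2 and 8.17 Mb at day 3 and 8.42 and 7.94 Mb at day 6. The day 3 library of batch DG-4040 stood apart by its narrow and weak peaks, with a median width of 238 bp, a median fold enrichment of 3.19 and 44.3% of peaks at a q-value of at most 0.01, whereas the other 3 lists had medians of 295 to 375 bp, 3.81 to 4.69 and 69.8 to 70.6%. Read numbers are not in the files used here, so the part of sequencing depth in these differences was not tested.

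The 2 libraries of a day did not resemble each other more than libraries of different days in every case. As shared over total covered bases, the 2 day 6 lists had the highest overlap, 0.423, and the 2 day 3 lists the lowest, 0.314. Lists of the same batch and different days had 0.363 in EA-3702 and 0.341 in DG-4040, and lists sharing neither had 0.320 and 0.323. Counted by peaks the order differed: 52.5% of the day 3 peaks of EA-3702 were in the day 3 list of DG-4040 and 50.0% in the day 6 list of their own batch, and for the day 3 peaks of DG-4040 the shares were 64.8% and 50.2%.

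**Figure D1:**
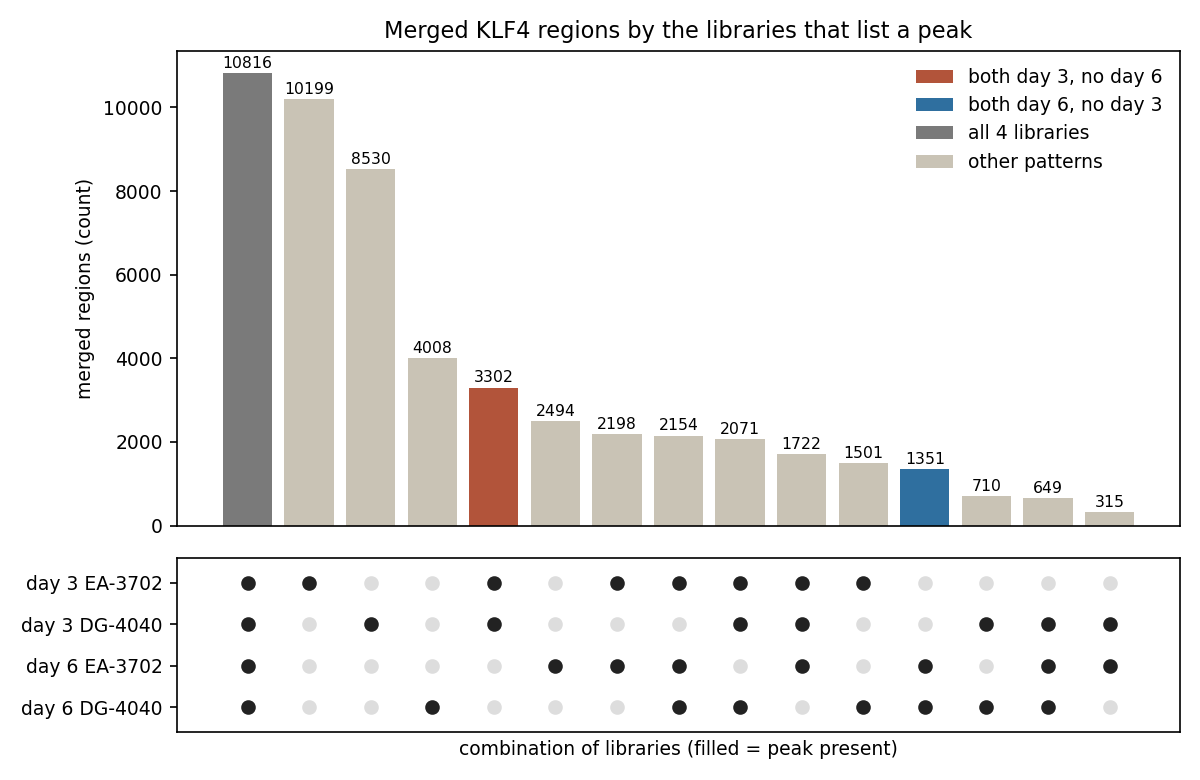
Number of merged KLF4 regions (vertical axis, count) for each combination of the 4 libraries that list a peak, with filled circles below marking the libraries. Common regions (10816) are the most frequent combination, lost regions (3302) outnumber gained regions (1351), and 25231 regions (48.5%) are in 1 list alone.

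Of the 17911 regions in both day 3 lists, 60.4% were in both day 6 lists, 21.2% in 1 and 18.4% in neither. Of the 14970 regions in both day 6 lists, 72.3% were in both day 3 lists, 18.7% in 1 and 9.02% in neither. Within batch EA-3702, 17196 regions were in the day 3 list alone, 16902 in both and 4887 in the day 6 list alone, a ratio of 3.52 day 3 to day 6 regions. Within batch DG-4040 the numbers were 14676, 14401 and 9382, a ratio of 1.56. Only a part of a batch's difference recurred in the other batch: of the regions in the day 3 list alone in EA-3702, 19.3% were in the day 3 list alone in DG-4040 and 59.7% in neither list of it. Of those in the day 6 list alone in EA-3702, 28.1% recurred and 51.9% were in neither list of DG-4040. Read from DG-4040, 23.8% of the regions in the day 3 list alone and 15.0% of those in the day 6 list alone recurred in EA-3702, where 23.9% of the latter were in both lists.

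More regions were lost than gained in the whole lists, 2.44 to 1, but the order reversed when each list was cut to its 22525 highest-scored peaks, the length of the shortest list. Then 1791 regions were lost, 2245 were gained and 9181 were common. Without the day 6 library of batch EA-3702, the order also reversed, with 5026 lost and 5404 gained regions. Which class is larger is thus not fixed by these lists.

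Lost and gained regions were mostly of middling or low score, and common regions of high score. Expressed as a percentile of the score within its own list, the median lost region stood at 46.8 in the day 3 list of EA-3702 and at 42.7 in that of DG-4040. The median gained region stood at 36.3 and 47.0 in the day 6 lists, whereas medians of common regions ran from 70.2 to 80.3 in the 4 lists. Both peaks were in the top 25% of their lists for 126 lost regions (3.82%), 28 gained regions (2.07%) and, for all 4 peaks, 2255 common regions (20.8%). The median widths were 388 bp for lost, 323 bp for gained and 624 bp for common regions.

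Peaks of high score were mostly found again on the other day. In batch EA-3702, 94.0% of the top 10% of day 3 peaks by score and 19.6% of the lowest 10% were found in the day 6 list. In batch DG-4040 the shares were 86.6% and 22.0%. In the other direction, 99.2% of the top 10% and 55.3% of the lowest 10% of day 6 peaks were found in the day 3 list of EA-3702, and 96.2% and 35.3% in that of DG-4040. In regions moved by 1 Mb, pairs of lists overlapped by 0.726 to 1.48% of peaks.

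**Figure D2:**
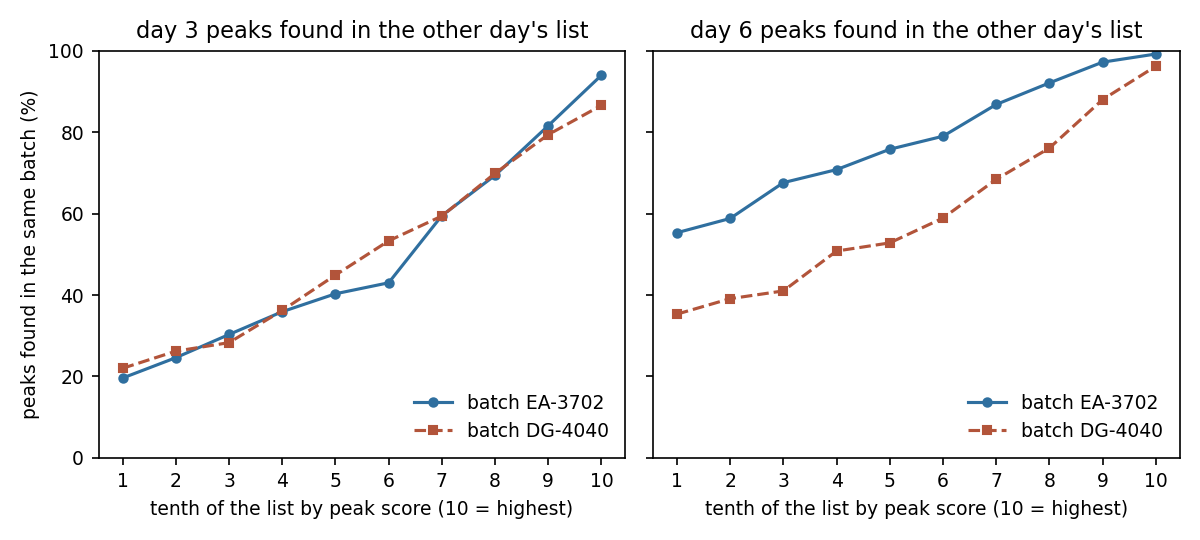
Share of peaks (vertical axis, %) of the day 3 lists (left) and day 6 lists (right) that overlap a peak of the other day's list of the same batch, by steps of 10% of the list in peak score (horizontal axis, 10 is the highest). In both batches the share is higher at higher score, from 19.6 to 94.0% for day 3 peaks in EA-3702 and from 22.0 to 86.6% in DG-4040.

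The 5 highest-ranked lost regions lay 4.36 to 260 kb from the nearest gene start. The first, at chr15:77881756-77882207 and 39.6 kb from the start of the non-muscle myosin gene Myh9, had day 3 scores of 420 and 163. It held H3K27ac peaks in both MEF libraries, in 2 of the 3 day 3 libraries, in none of the 3 day 6 libraries, and again in both day 9 and both ESC libraries. Others lay in Ptpn3 at chr4:57306192-57306798, in Spred2 at chr11:19966329-19966794 and in Rhobtb1 at chr10:69156788-69157884, and 1 lay at chrX:99396068-99396606, 260 kb from the ephrin gene Efnb1. No day 9 KLF4 library had a peak in any of the 5, but 2 of them held KLF4 peaks in ESCs: the region near Myh9 in 1 serum and both 2i libraries, and that in Spred2 in both serum libraries.

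The 5 highest-ranked gained regions lay at most 7.97 kb from a gene start. The first, at chr2:118805645-118806029 near the spindle gene Knstrn, had day 6 scores of 393 and 354. The next lay in Gal3st3 at chr19:5300544-5300963, with 309 and 445. The third lay in Nt5dc2 at chr14:31138595-31138970, with 215 and 641. The fourth lay in Ybx2 at chr11:69938598-69938939, with 269 and 332, and the fifth on the start of Nr5a2. All 5 held KLF4 peaks in both day 9 libraries and in at least 1 serum ESC library, and none held an H3K27ac peak in a MEF, day 3 or day 6 library.

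Gained regions were nearer to gene starts than lost regions. Within 2.5 kb of a protein-coding start lay 13.1% of lost, 19.3% of gained, 34.5% of common and 23.5% of all merged regions, against 4.91, 6.65, 5.97 and 5.09% for the same regions moved by 1 Mb. The start itself was inside 4.16% of lost and 11.4% of gained regions. The median distance was 38.3 kb for lost, 25.2 kb for gained and 15.0 kb for common regions. Chromosome 18 has no start in the table used, so these shares leave it out. The order of gained over lost held within EA-3702, with 37.6 against 14.5%, and by a narrow margin within DG-4040, with 19.3 against 18.1%. Without the day 6 library of EA-3702 it turned to 11.2% of gained against 25.6% of lost regions.

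The same measure over whole lists gave 27.6 and 23.9% at day 3 and 40.0 and 25.4% at day 6, each first for EA-3702 and then for DG-4040. The day 6 library of EA-3702 alone was high, and the other day 6 library lay between the 2 day 3 libraries. The means were 25.7% ± 2.65 (SD, n = 2) at day 3 and 32.7% ± 10.4 (SD, n = 2) at day 6, and the exact two-sided permutation test gave p = 0.667 (adjusted 0.889) for a difference of 6.96 percentage points. Without the day 6 library of EA-3702 the difference was -0.356 percentage points.

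**Figure D3:**
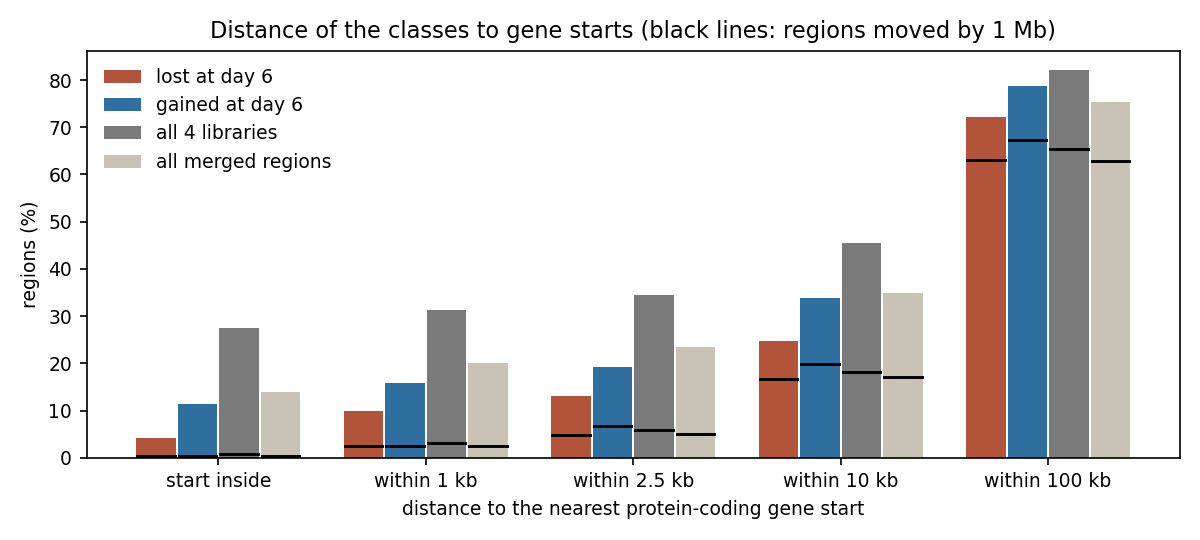
Share of regions (vertical axis, %) with a protein-coding gene start inside them or within 1, 2.5, 10 and 100 kb, for lost, gained, common and all merged regions. Black lines give the same regions moved by 1 Mb; within 2.5 kb the bars stand at 13.1% for lost, 19.3% for gained and 34.5% for common regions.

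Lost regions had a common region within 10 kb in 23.1% of cases, against 9.93% when moved by 1 Mb, and gained regions in 21.2%, against 11.3%. Over all merged regions the share with another, common region in reach was 22.7%. Another lost region lay within 10 kb of 10.8% of the lost regions, and another gained region within 10 kb of 5.63% of the gained ones, against 7.42 and 2.69% of all merged regions. Gene bodies held 59.4% of lost, 58.3% of gained and 70.5% of common regions, against 62.0% of all.

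Later libraries, which the class rule did not use, differed sharply between lost and gained regions. At day 9, in cells sorted for SSEA1 as at day 6, the 2 KLF4 libraries had peaks in 73.4 and 77.4% of gained, 10.1 and 12.6% of lost, 85.5 and 86.8% of common and 37.2 and 39.6% of all merged regions. The 2 libraries of the ESC line V6.5 in serum had peaks in 41.5 and 62.7% of gained, 9.18 and 18.9% of lost and 59.3 and 74.3% of common regions. The 2 libraries of ESCs in 2i, a medium with inhibitors of MEK and GSK3, had peaks in 42.9 and 42.0% of gained and 10.9 and 13.4% of lost regions. Regions moved by 1 Mb gave 0.592 to 1.87% in these 6 libraries over all classes. In each of the 6 libraries gained regions stood above all merged regions and lost regions below them. Regions are not replicates, so these shares are given with no test.

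No KLF4 peak of day 9 or of either ESC medium lay in 64.8% of lost regions, in 7.11% of gained, in 4.67% of common and in 42.4% of all merged regions. KLF4 peaks in both day 9 and both serum ESC libraries lay in 31.6% of gained, 1.06% of lost, 52.3% of common and 16.5% of all merged regions. Peaks in both day 9 libraries and in neither serum ESC library lay in 20.7% of gained, 3.91% of lost, 15.4% of common and 9.20% of all merged regions. No day 9 peak and a peak in both serum ESC libraries were found in 167 lost regions (5.06%), against 3.48% of gained, 2.28% of common and 3.74% of all merged regions.

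The shares were higher at higher score for gained regions and near the same for lost ones, chromosome 18 left out. Of gained regions with a mean score percentile under 50, 67.5 and 70.9% held a peak in the 2 day 9 libraries, and of the 55 above 75 it was 100 and 98.2%. For lost regions the shares were 9.80 and 11.7% under 50 and 9.59 and 11.4% in the 219 above 75. Both day 9 KLF4 libraries are of batch EA-3702, which also holds 1 library of each day compared here. Within EA-3702, day 9 peaks lay on average in 48.9% of regions listed at day 6 alone, 32.9 percentage points above those listed at day 3 alone. Within DG-4040, whose libraries share no batch with them, the shares were 55.4% at day 6 alone and 11.7% at day 3 alone. For serum ESC KLF4 they were, in the same order, 39.2 and 13.8% in EA-3702 and 37.3 and 13.7% in DG-4040. The gap was narrower when 1 day 6 library was left out. Without that of EA-3702, mean day 9 KLF4 shares were 50.4% of gained and 22.7% of lost regions and serum ESC shares 33.2 and 25.8%, and without that of DG-4040 they were 45.2 and 25.5% for day 9, and for serum ESC 36.0% of gained regions, 17.0 percentage points above lost ones.

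Over whole lists, the share of peaks in the 16505 KLF4 regions found in both serum ESC libraries was 27.9 and 29.0% at day 3 and 42.7 and 40.1% at day 6. Both day 6 lists were above both day 3 lists. The means were 28.5% ± 0.770 (SD, n = 2) and 41.4% ± 1.82 (SD, n = 2), a difference of 13.0 percentage points, with 14.8 in EA-3702 and 11.1 in DG-4040. The exact two-sided permutation test gave p = 0.333, the smallest it allows (adjusted 0.667). With the 22525 highest-scored peaks of each list the difference was 7.57 percentage points, with the days still apart at 35.4 and 33.4% against 42.7 and 41.3%.

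**Figure D4:**
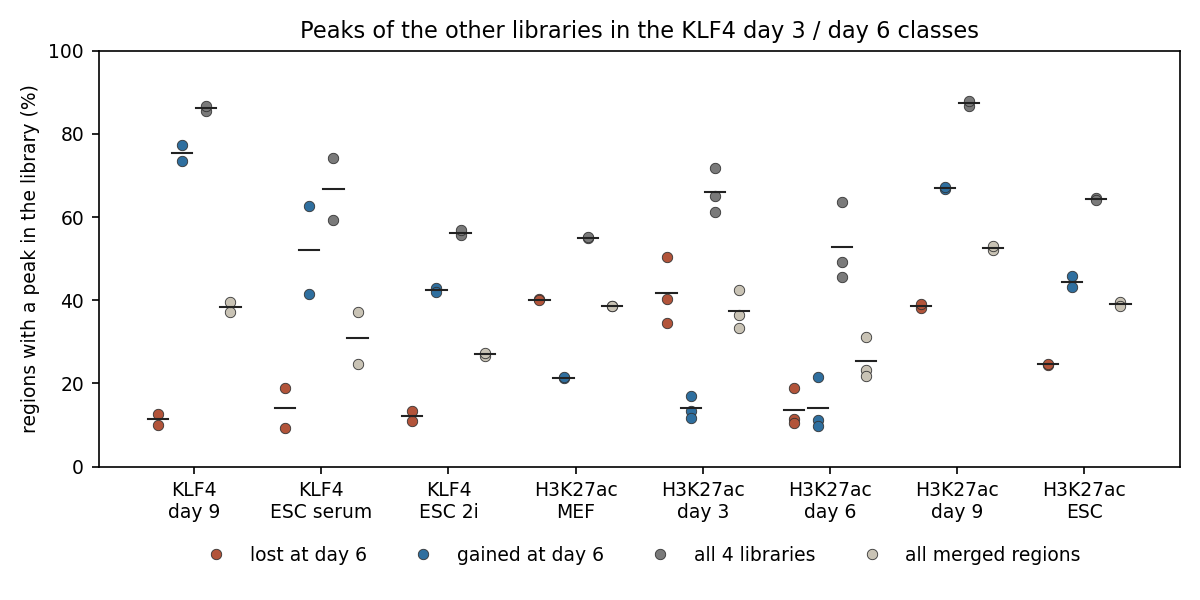
Share of regions (vertical axis, %) that overlap a peak of each KLF4 or H3K27ac library not used to define the classes; each point is 1 library and the line is the mean of the stage. Gained regions stand near common ones for KLF4 at day 9 (73.4 and 77.4%), lost regions near the bottom (10.1 and 12.6%), and the order turns for H3K27ac of MEFs.

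Acetylation gave the other side of the picture. H3K27ac peaks of the 2 MEF libraries lay in 40.2 and 40.1% of lost, 21.2 and 21.5% of gained, 54.9 and 55.1% of common and 38.7% of all merged regions in each. Lost regions thus stood close to all merged regions and gained regions under them. In the 3 day 3 libraries the mean was 41.7% ± 8.04 (SD, n = 3) of lost and 14.1% ± 2.62 (SD, n = 3) of gained regions, against 37.4% of all merged regions. In the 3 day 6 libraries, whose lists are short, it was 13.6% ± 4.72 (SD, n = 3) and 14.1% ± 6.44 (SD, n = 3), with no separation and both under the 25.4% of all merged regions. At day 9 it was 38.1 and 39.0% of lost and 66.8 and 67.2% of gained regions, against 52.1 and 53.0% of all.

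The MEF difference depended on the batch. Within EA-3702, MEF acetylation lay in 36.2% of regions listed at day 3 alone and 44.9% of those listed at day 6 alone, and within DG-4040 in 30.9 and 24.6%. It also turned without the day 3 library of EA-3702, to 22.3% of lost and 40.2% of gained regions, and without the day 6 library of DG-4040, to 34.5 and 46.5%. The day 9 order held in both, with 39.4 and 67.3% in EA-3702 and 30.7 and 56.0% in DG-4040. That order turned without the day 6 library of EA-3702, to 52.0% of lost and 46.7% of gained regions. Over whole lists, 47.3 and 38.4% of day 3 peaks and 55.9 and 37.5% of day 6 peaks lay in the 62480 H3K27ac regions of both MEF libraries. The difference of 3.83 percentage points was smaller than the spread of either day (exact two-sided permutation test, p = 1.00, adjusted 1.00), and its sign differed between the batches.

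A subset of gained regions held H3K27ac peaks at day 9 and none in MEFs or at day 3. Both day 9 libraries are of batch EA-3702 and of cells sorted for SSEA1. Both MEF libraries are of batch DG-3458, and the day 3 libraries are of both batches. Stage and batch therefore cannot be told apart between MEF and day 9 libraries. H3K27ac in both day 9 libraries and in no MEF or day 3 library was found in 521 gained regions (38.6%), against 4.15% of lost, 11.5% of common and 9.88% of all merged regions. Set against ESCs and not day 9, H3K27ac in both MEF libraries and in no ESC library was found in 675 lost regions (20.4%), against 3.77% of gained, 7.42% of common and 9.93% of all merged regions. H3K27ac in at least 2 day 3 libraries and in no day 6 library was found in 22.1% of lost, 1.85% of gained, 7.71% of common and 8.55% of all merged regions. In 25.3% of lost, 19.9% of gained, 4.78% of common and 29.3% of all merged regions no H3K27ac library of any stage had a peak.

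Genes were then read by the regions in their body or 10 kb to each side. Of 21627 protein-coding genes, 10.9% had at least 1 lost region, 5.68% at least 1 gained region and 36.2% at least 1 common region. A gene's count depends on its length, and the lists described next are short, so their counts are set beside these shares as a description. Distances given for a gene are to the nearest RefSeq start with a promoter entry, which can be an alternative start inside the gene. Fewer required libraries give larger shares of all genes, so counts under other settings are read against the share in the same setting. For lost and gained regions it was 6.14 and 9.45% with each list cut to 22525 peaks, 37.3 and 21.7% within EA-3702 and 35.1 and 29.0% within DG-4040, where a region needs a single library. It was 27.8 and 16.2% without the day 3 library of EA-3702, 32.6 and 8.16% without that of DG-4040, 18.1 and 16.8% without the day 6 library of EA-3702 and 15.8 and 18.3% without that of DG-4040.

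Of 23 epithelial genes, 8 had a gained region (34.8%), 2 had a lost one and 18 had a common one. The genes with a gained region were Cldn4, Cldn7, Crb3, Krt8, Krt18, Lsr, St14 and Tjp3, which encode claudins, a polarity protein, simple-epithelium keratins, a tricellular junction receptor, a membrane protease and a tight junction scaffold. Cldn7 had its gained region at chr11:69970678-69971093, 5.26 kb from the start, with day 6 scores of 93 and 128. Krt8 had a gained region inside the gene, with 62 and 128, and a lost one 2.78 kb upstream, with day 3 scores of 84 and 73. Krt18 had a gained region 0.0610 kb upstream of its start, with 24 and 53. The gained region on the Cldn4 start had day 6 scores of 55 and 31, and that on the Lsr start 47 and 41. Of the 8 gained regions, 7 held a KLF4 peak in both day 9 libraries (68.7% of all gained regions) and the other in 1. No MEF library had an H3K27ac peak in 7 of the 8. Most gained regions lacked one as well, since the 2 MEF libraries had peaks in 21.2 and 21.5% of all gained regions.

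The count of epithelial genes with a gained region was 10 when each list was cut to 22525 peaks, with Epcam and Grhl2 added, and 1 gene had a lost one. Within batches 9 epithelial genes had a region listed at day 3 alone and 12 one listed at day 6 alone in EA-3702, and 15 and 17 in DG-4040, against 37.3 and 21.7% and 35.1 and 29.0% of all genes. Without the day 3 library of EA-3702 the order turned, with 12 genes with a lost and 11 with a gained region, and without that of DG-4040 the counts were 9 and 9. Without the day 6 library of EA-3702 they were 5 and 15, and without that of DG-4040 they were 3 and 12. Cdh1, which encodes E-cadherin, the main adhesion protein of epithelia, had 4 common regions and neither a lost nor a gained one. Its region at chr8:106631564-106631999 had scores of 325 and 114 at day 3 and of 181 and 151 at day 6. Epcam, an epithelial adhesion gene, had a common region 0.450 kb from its start with 31 and 32 at day 3 and 173 and 118 at day 6. Scores of lists of different length give no measure of change and are set side by side only.

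Of 25 pluripotency genes, 5 had a gained region (20.0%), 4 a lost one and 13 a common one. Gained regions lay at Nanog, Nr5a2, Esrrb, Mycn and Epha2. Esrrb, an orphan nuclear receptor gene of the ESC network, had one inside the gene at chr12:86463031-86463392, 41.4 kb from the nearest listed start, with day 6 scores of 38 and 41 and with no H3K27ac peak before the ESC stage. Mycn, a MYC family gene, had one in its body with 43 and 104. Each of the 6 gained regions at these genes held a KLF4 peak in both serum ESC libraries, and 5 held one in both day 9 libraries, against 39.1 and 68.7% of all gained regions. The 2 gained regions at Epha2 held H3K27ac peaks in both MEF libraries, as did 19.4% of all gained regions, and the other 4 in neither.

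Pluripotency genes also kept KLF4 peaks on both days. Zfp42, known as Rex1, had a common region on its start with scores of 178 and 98 at day 3 and 309 and 296 at day 6. Pou5f1, which encodes OCT4, had a common region 1.77 kb upstream with 112 and 21 at day 3 and 315 and 360 at day 6. Nanog had one 4.04 kb upstream of its start with 279 and 73 and with 221 and 209, so the gained region on the Nanog start joined a region that was already listed at day 3. Of the 18 common regions at these genes, 17 held a KLF4 peak in both day 9 libraries, against 81.6% of all common regions.

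The lost regions of the list were at Pou5f1, Sox2, Tet2 and Epha2, and none had a score above 60. Pou5f1 had one 0.277 kb into the gene with 39 and 38, and Sox2 had one just upstream of its start with 51 and 21 and one in the gene with 44 and 60. The regions inside these genes are where reads of the cassette can also map. With each list cut to 22525 peaks, 0 pluripotency genes had a lost region and 8 had a gained one, with Dnmt3l, Tet1 and Tfcp2l1 added. Within batches the counts of genes listed at day 3 alone and at day 6 alone were 12 and 12 in EA-3702, where the shares of all genes were 37.3 and 21.7%, and 10 and 14 in DG-4040, where they were 35.1 and 29.0%. Leaving out a day 3 library gave 9 genes with a lost and 10 with a gained region (EA-3702) or 9 and 9 (DG-4040), and leaving out a day 6 library gave 5 and 9 or 8 and 8.

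**Figure D5:**
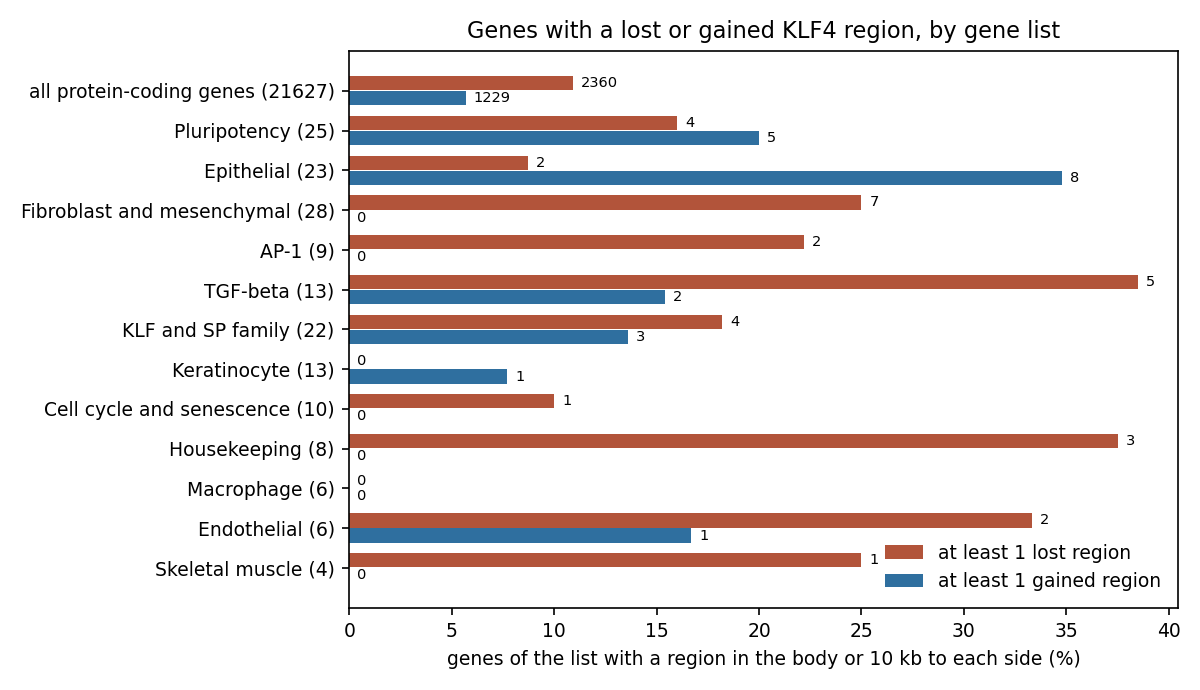
Share of the genes of each list (horizontal axis, %) with at least 1 lost or gained region in the body or 10 kb to each side; numbers at the bars are genes and numbers in brackets the size of the list. The list of 2 fucosyltransferase genes is not drawn. Among those drawn, epithelial genes stand highest for gained regions (8 of 23), and the fibroblast list has 0 genes with a gained region. For lost regions TGF-beta genes (5 of 13, 38.5%) stand highest, with housekeeping genes (3 of 8, 37.5%) close to them.

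Of 28 fibroblast and mesenchymal genes, 7 had a lost region, 0 a gained one and 14 a common one. They were Cdh2, which encodes N-cadherin, Col6a1, a collagen gene, the transcription factor genes Runx1, Runx2 and Twist1, and Zeb1 and Zeb2, which encode repressors of epithelial genes. Cdh2 had 3 lost regions, with day 3 scores of 115 and 44, 86 and 66, and 74 and 32. Col6a1 had one at chr10:76698948-76699397, beyond the gene's end, with 68 and 116. Runx2 had one in the gene with 74 and 66, and Zeb2 one 0.384 kb into the gene with 36 and 32. Of the 9 lost regions, 7 had no KLF4 peak at day 9, against 83.3% of all lost regions.

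The list also had common regions. Its 14 genes with a common region included Col1a1, Col1a2, Fn1, Vim and S100a4, and 18 of the 26 common regions held a KLF4 peak in both day 9 libraries, a lower share than the 81.6% of all common regions. The absence of gained regions did not hold within batches, where 6 of the 28 genes had a region listed at day 6 alone in EA-3702 and 6 in DG-4040, against 18 and 16 with a region listed at day 3 alone. The shares of all genes were 21.7 and 29.0% at day 6 alone and 37.3 and 35.1% at day 3 alone, so the 6 genes were near or under the background. Without a day 3 library 15 (EA-3702) or 18 (DG-4040) genes had a lost region and 2 or 0 a gained one, and without a day 6 library 7 genes had a lost region in either case and 4 (EA-3702) or 5 (DG-4040) a gained one. With each list cut to 22525 peaks, 3 genes had a lost region, Cdh2, Col6a1 and Runx2, and 0 a gained one.

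TGF-beta signalling holds fibroblasts in their mesenchymal state, with ligands acting through the receptors Tgfbr1 and Tgfbr2 and through the SMAD proteins. Of 13 genes of the pathway, 5 had a lost region (38.5%), 2 a gained one and 10 a common one. None of the 3 ligand genes had a lost region. Among the receptors, Tgfbr1 and the co-receptor gene Tgfbr3 had 2 lost regions each, and Tgfbr2 had 0. Among the transducers, Smad3 had 3, the highest at chr9:63666849-63667327 with day 3 scores of 117 and 34. The inhibitor Smad7 had 3. None of the 11 lost regions of the list held a KLF4 peak at day 9, as was the case for 83.3% of all lost regions. Gained regions lay in Smad2 with 31 and 57 and in Smad6 with 83 and 67. With each list cut to 22525 peaks, 3 genes had a lost and 3 a gained region. Within batches 11 genes had a region listed at day 3 alone and 4 one listed at day 6 alone in EA-3702 (all genes 37.3 and 21.7%), and 7 and 8 in DG-4040 (35.1 and 29.0%). Leaving out a day 3 library gave 7 genes with a lost and 4 with a gained region (EA-3702) or 10 and 3 (DG-4040), and leaving out a day 6 library gave 6 and 5 or 7 and 3.

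AP-1 proteins, which keep many fibroblast enhancers active, are made by 9 listed genes, of which 2 had a lost region, 0 a gained one and 6 a common one. Fosl2 had 2 lost regions, the stronger at chr5:32133086-32134102 with day 3 scores of 152 and 38, and Atf3 had 1 with 30 and 38. With each list cut to 22525 peaks, 1 gene had a lost region, Fosl2, and 1 a gained one, Junb. Within batches 7 genes had a region listed at day 3 alone and 4 one listed at day 6 alone in EA-3702 (all genes 37.3 and 21.7%), and 6 and 4 in DG-4040 (35.1 and 29.0%). Without a day 3 library 4 (EA-3702) or 6 (DG-4040) genes had a lost region and 4 or 0 a gained one, and without a day 6 library 3 genes had a lost region in either case and 0 (EA-3702) or 2 (DG-4040) a gained one.

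In the KLF and SP family, 4 of 22 genes had a lost region, 3 a gained one and 15 a common one. With lists cut to equal length, 2 genes had a lost region, Klf6 and Klf13, and 2 a gained one, Klf8 and Klf9. In that setting Klf7 and Klf9 had no lost region and Klf1 no gained one. Within batches 12 genes had a region listed at day 3 alone and 6 one listed at day 6 alone in EA-3702 (all genes 37.3 and 21.7%), and 10 and 9 in DG-4040 (35.1 and 29.0%). Klf6 had 2 lost regions downstream of its start with day 3 scores of 96 and 32 and of 177 and 39. Klf9 had a gained region 10.9 kb into the gene at chr19:23152169-23152558 with 139 and 144, and 2 lost ones further on with 24 and 38 and with 56 and 26. Klf4 itself had a common region on its start with 315 and 107 at day 3 and 303 and 118 at day 6. Klf2, a family member of the ESC network, had a common region 2.51 kb upstream with 249 and 125 and with 247 and 306. For the family as a whole, the counts of genes with a lost and with a gained region were 7 and 4 without the day 3 library of EA-3702, 12 and 4 without that of DG-4040, 7 and 5 without the day 6 library of EA-3702 and 6 and 5 without that of DG-4040.

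Of 13 keratinocyte genes, 1 had a gained region, Sfn, which encodes 14-3-3 sigma, and 11 had no region of the 3 classes. With each list cut to 22525 peaks, 0 keratinocyte genes had a lost region and 2 a gained one, Evpl and Sfn. Listed at day 3 alone and at day 6 alone were 2 and 4 of them in EA-3702, and 2 and 3 in DG-4040. Leaving out 1 library gave 0 to 1 of them with a lost and 2 to 3 with a gained region. Of 2 fucosyltransferase genes tied to the SSEA1 sort, Fut4 had a gained region within 10 kb, with 54 and 74, on the start of its neighbour Piwil4. Of 10 cell cycle and senescence genes, 1 had a lost region, Ccnd1, 0 a gained one and 7 a common one. With each list cut to 22525 peaks, 0 of these genes had a lost region and 2 a gained one, Cdkn1a and Mdm2. In EA-3702, 8 of them had a region listed at day 3 alone and 3 one listed at day 6 alone (all genes 37.3 and 21.7%). In DG-4040 the counts were 6 and 6 (all genes 35.1 and 29.0%). Leaving out 1 library gave 2 to 7 of them with a lost and 1 to 4 with a gained region. Of 8 housekeeping genes, 3 had a lost region, Actb, Polr2a and Tbp, and 0 a gained one, so the share of genes with a lost region was 37.5%, higher than in the fibroblast list. With each list cut to 22525 peaks it was 0 of 8, and within batches 4 housekeeping genes had a region listed at day 3 alone and 3 one listed at day 6 alone in EA-3702 (all genes 37.3 and 21.7%), and 7 and 2 in DG-4040 (35.1 and 29.0%). Leaving out 1 library gave 3 to 6 housekeeping genes with a lost and 0 to 3 with a gained region.

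Markers of other cells that a fibroblast culture can hold were also read, beside the 10.9% of all genes with a lost and the 5.68% with a gained region. Of 6 macrophage genes, 0 had a lost or gained region. Of 6 endothelial genes, 2 had a lost region, Erg and Tek, in long windows of 247 and 156 kb, and 1 a gained one, Tie1. Of 4 skeletal muscle genes, 1 had a lost region, Des, and 0 a gained or a common one. The part of such cells in the lost regions was not tested.

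Across all genes, Fndc3b, Aopep and Dlc1 had the most lost regions, with 6 each and 0 gained ones, in windows of 315, 381 and 405 kb. Mbnl2, which encodes a splicing factor, had 5 in 176 kb, and the predicted gene Gm40363 had 5 in 76.0 kb. Clybl had the most gained regions, with 4, and 0 lost ones. Tbc1d16, Rnf220, Pitpnc1 and Arhgap26 had 3 each, and Arhgap26 also had 4 lost ones in its window of 795 kb.

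The promoter windows that overlap the classes were compared for the KLF letters. Each window runs from 250 bases before to 50 after a RefSeq start, and 17273 of the 21627 genes have one. The letters GGGNGTG, on either strand, occurred in 34.1% of 173 windows under lost regions, 43.4% of 198 under gained, 47.6% of 3604 under common regions and 31.5% of all 21044 windows. Base composition moved with this, with a mean GC content of 61.1, 62.3, 65.5 and 56.4%. Among windows of at least 60% GC the shares were 30.7% of 88, 40.8% of 120, 48.9% of 2771 and 42.5% of 8324. Under 60% GC they were 37.6% of 85, 47.4% of 78, 43.6% of 833 and 24.3% of 12720. The TEAD-type letters GGAATG occurred in 16.2% of windows under lost, 10.6% under gained and 13.5% of all windows. Under 60% GC the shares were 25.9% of lost and 15.4% of gained windows, and at or above it the order turned, to 6 of 88 lost windows (6.82%), 9 of 120 gained windows and 9.57% of all windows. Without the split, the AP-1 letters TGANTCA occurred in 6.94% of lost, 6.57% of gained and 7.04% of all windows. Split by GC content, the AP-1 letters occurred in 14.1% of lost, 6.41% of gained and 9.40% of all windows under 60% GC, and in 0, 6.67 and 3.42% at or above it. A match describes the letters in these windows and is not a binding site.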

How the data were processed

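KLF4 ChIP-seq had been made from formaldehyde-fixed cells with single-end reads, per the labels' protocols. The submitters' processing notes name mm10, cutadapt 1.8.1, Bowtie2 2.2.5, deepTools 2.3.6 and MACS2 2.1.1, with no role or order. Each library has its own list, and the values used are the deposited score of each peak and, per the file contents, fold enrichment (a ratio), the −log10 p-value and the −log10 q-value as the authors deposited them; the score equals 10 times the −log10 p-value rounded down in 100% of peaks of these 4 lists, and the lowest −log10 p-value is 2.01. The lists hold no read counts or depth, so no interval or count test was made.

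Lists were kept on chromosomes 1 to 19 and X and merged wherever peaks share at least 1 bp. An overlap is 1 shared bp unless stated. Gene names, bodies and starts came from RefSeq tables of GRCm38.p6, the same build as mm10; H3K27ac peaks overlap 38.5 to 55.8% of starts and 1.02 to 5.93% after a move by 1 Mb. All 166 listed genes were found. The values of 1 listed gene are not reported here. Whole-list measures were tested by exact two-sided permutation over 6 labelings, or 4 within batches, where p cannot go below 0.333 or 0.500. Replicates are separate samples per the labels, and their origin from separate cultures was not tested. Named regions are the 5 best by mean score percentile in each class, named genes those of the gene lists and the 5 with the most lost or gained regions. The members, lists and rules were chosen with earlier results of these data known. A planned comparison of bases around peak centres needs a genome and was not made; promoter windows were used instead. Batches pair the days by the labels, and values within batches stand beside the list measures, the classes and the main gene lists. The code was tested on simulated data. Python 3.11.15, numpy 2.4.6, pandas 2.3.3 and matplotlib 3.10.9 were used.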

Additional observations from a re-analysis of the deposited data

Results flagged for a closer look

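The share of a list's peaks in the H3K27ac regions of fibroblasts moved in opposite directions in the 2 batches, by 8.61 percentage points from day 3 to day 6 in EA-3702 and by -0.953 in DG-4040, a gap of 9.57 percentage points. Each batch holds 1 library of each day, so the difference between batches was not tested.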

How the results depend on the processing

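The difference in peak number kept its direction under every alternative run, at -0.13 to -0.61 on the log2 scale. With peaks at a q-value of at most 0.01, however, it was a mean of opposite moves. The number fell from 24283 to 15761 in EA-3702 and rose from 13052 to 16719 in DG-4040. The serum ESC KLF4 share kept its direction at 7.57 to 14.8 percentage points. With the batch as a replicate block the paired differences were -0.46 (log2) for peak number, 6.96, 13.0 and 3.83 percentage points for the gene-start, ESC KLF4 and fibroblast H3K27ac shares, with exact permutation p of 0.500, 0.500, 0.500 and 1.00. Leaving out 1 library, the gene-start share ran from -0.356 to 14.3 and the fibroblast H3K27ac share from -5.39 to 13.1 percentage points; within batch DG-4040 the latter was -0.953.

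Lost regions numbered 1791 in lists shortened to 22525 peaks, 1499 with a q-value of at most 0.01, 2171 with the top 50% of each list, 17196 within EA-3702 and 14676 within DG-4040, and 5026 to 13567 without 1 library. Gained regions numbered 2245, 1187, 690, 4887 and 9382 in the same order, and 2005 to 5404 without 1 library. Common regions numbered 9181, 6231, 4950, 16902 and 14401, and 11526 to 12972 without 1 library. The log2 ratio of lost to gained, 1.29, became -0.33 in the shortened lists and ran from -0.10 to 2.76 without 1 library.

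Gained minus lost regions, in percentage points, was 64.1 for day 9 KLF4 (32.9 within EA-3702, 43.6 within DG-4040, 19.7 to 70.6 without 1 library) and 38.0 for serum ESC KLF4 (25.4, 23.6 and 7.45 to 46.8). It was -18.8 for fibroblast H3K27ac (8.65, -6.38 and -38.9 to 17.9; -13.7 in the shortened lists) and 28.4 for day 9 H3K27ac (27.9, 25.4 and -5.31 to 53.6; 31.7 in the shortened lists). The KLF4 orders thus held in every setting run, and both H3K27ac orders turned in at least 1. The KLF letters differed by 9.33 and, in the shortened lists, 7.22 percentage points. Leaving out libraries was added for these readouts and for the gene lists after the data were seen. Bases around peak centres were not run, since no genome was at hand. The cause of these moves was not tested. Peak lists without read numbers limit every comparison to presence or absence in a list.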

Other observations

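Of the 6 highest-ranked lost regions that overlap a RefSeq promoter window, 4 were acetylated at every stage: those at Gtf3c3, a subunit gene of a factor of RNA polymerase III, at Hmgxb4, Rdh14 and Nt5m held H3K27ac peaks in every MEF, day 3, day 6, day 9 and ESC library, while KLF4 peaks at day 9 were found at Rdh14 alone. H3K27ac in every library was found in 57 of 132 lost regions with a gene start inside (43.2%), 31.5% of such gained, 73.9% of such common and 61.7% of all such regions. The day 3 scores of the 4 were 145 and 71 at Gtf3c3, 112 and 69 at Hmgxb4, 75 and 107 at Rdh14 and 113 and 125 at Nt5m. Among the 6 gained regions chosen the same way, Mcm7, which encodes a subunit of the replicative helicase, was acetylated in every library as well, with day 6 KLF4 scores of 188 and 128. St3gal3, a sialyltransferase gene, had scores of 281 and 239, and Klc3, a kinesin light chain gene, had 193 and 120 with no H3K27ac peak before the ESC stage. These genes were chosen by rank and their values are given as a description.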
